A study of Drosophila melanogaster with 2 samples.

Results

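Gug is the fly Atrophin, a corepressor of transcription, and the peaks described here are those of Gug-eGFP at promoters whose coding transcripts start in a single direction. Of the 5750 peaks whose summit, the point of highest signal, lay on the 6 chromosome arms (2L, 2R, 3L, 3R, 4 and X), 1303 (22.7%; 95% exact binomial interval 21.6 to 23.8) were of this kind. A peak was kept where transcript starts of protein-coding genes lay within 500 bp of its summit on 1 strand only, whatever its signal. These are called one-strand peaks below. The 586 peaks with coding starts on both strands within 500 bp are called two-strand peaks (10.2%; 9.42 to 11.0), and the other 3861 had no coding start within that distance.

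Chromatin came from whole Drosophila melanogaster prepupae (1 day) of a transgenic fly line that expresses Gug joined to eGFP, and the fusion was precipitated with an antibody to GFP after sonication. The only group was this line, with 2 biological replicates, and the labels give no untreated or wild-type group. They name possible controls from another experiment, which were not analysed here, and do not name the promoter of the fusion. Whole animals mix all tissues, so a peak can come from any of them, and the sex of the animals was not collected. Per the labels the insertion targets the Gug gene, and they give the antibody as Gug in 1 field and as anti-GFP in another. A list for both replicates together held 5753 peaks on dm6, replicate 1 alone gave 3827 and replicate 2 alone gave 4000. The lists were thresholded on the irreproducible discovery rate (IDR), a score of how well the rank of a peak repeats between replicates or parts of one. No source used here gives the read depth of the libraries. Any spread between replicates is that of 2 samples.

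Atrophin proteins do not read DNA themselves. They are brought to it by sequence-specific factors, among them the nuclear receptor Tailless in flies, and recruit histone deacetylases. Gug is also known for its link to the atypical cadherin Fat in planar polarity and for its antagonism of EGFR signalling in fly tissues. A promoter consists of the transcript start, where RNA polymerase II is loaded, and the flanking DNA upstream, where regulatory factors are often bound. In the compact fly genome many neighbouring genes are divergent and share that upstream DNA. At a one-strand promoter upstream and downstream follow from 1 direction of transcription.

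The sequences under strong peaks of each position class show what kind of DNA carried the signal. Each is 151 bases centred on the summit, read 5′ to 3′ on the strand of the gene from the RefSeq copy of the same assembly, dm6. Capitals mark matches, on either strand, to 20 short motifs that were searched. CG14100 had the strongest one-strand peak (signal 2182), 91 bp upstream of the start, at chr3L:19590540-19590690, minus strand. Ugalt, a transporter of UDP-galactose into the Golgi, had the next (2084), 37 bp upstream, at chrX:2703814-2703964, minus strand. CG18549 (1360, 128 bp upstream, chr3R:12449093-12449243, plus strand) and Hsp27, a small heat shock protein (1308, 161 bp upstream, chr3L:9383827-9383977, plus strand), stand for peaks over 100 bp upstream. Downstream peaks are shown by ph-p, the proximal polyhomeotic gene of Polycomb repressive complex 1 (811, 482 bp downstream, chrX:2137814-2137964, minus strand), and by Ptp4E. Ptp4E, a receptor tyrosine phosphatase (683, chrX:4939914-4940064, plus strand), had its summit 408 bp downstream of an internal start, one that is not the first of its gene. CG10713, in the weakest of 5 equal parts by signal (77.2, 107 bp upstream, chr3L:13435261-13435411, minus strand), was chosen as a contrast after its values were seen.
CG14100: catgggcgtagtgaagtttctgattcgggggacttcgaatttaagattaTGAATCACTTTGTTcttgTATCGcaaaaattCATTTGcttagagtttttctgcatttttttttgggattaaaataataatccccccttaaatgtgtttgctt
Ugalt: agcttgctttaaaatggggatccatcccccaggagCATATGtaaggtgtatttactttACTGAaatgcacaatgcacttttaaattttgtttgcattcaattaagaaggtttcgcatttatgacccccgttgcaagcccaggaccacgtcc
CG18549: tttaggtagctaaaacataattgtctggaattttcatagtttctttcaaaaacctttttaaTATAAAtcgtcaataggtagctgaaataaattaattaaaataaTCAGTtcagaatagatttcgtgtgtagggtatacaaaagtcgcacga
Hsp27: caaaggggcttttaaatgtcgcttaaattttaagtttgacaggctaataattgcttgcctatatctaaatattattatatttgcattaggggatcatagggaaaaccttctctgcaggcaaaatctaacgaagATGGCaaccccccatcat
ph-p: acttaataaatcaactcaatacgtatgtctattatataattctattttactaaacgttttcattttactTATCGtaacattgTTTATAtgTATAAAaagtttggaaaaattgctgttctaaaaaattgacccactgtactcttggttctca
Ptp4E: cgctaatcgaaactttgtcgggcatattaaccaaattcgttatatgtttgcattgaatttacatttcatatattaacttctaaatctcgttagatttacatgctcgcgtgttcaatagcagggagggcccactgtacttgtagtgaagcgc
CG10713: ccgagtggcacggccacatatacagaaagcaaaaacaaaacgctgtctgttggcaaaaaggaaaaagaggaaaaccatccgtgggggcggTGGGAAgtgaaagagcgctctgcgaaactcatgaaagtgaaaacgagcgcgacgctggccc
The window of CG10713 had a GC content of 52.3%, above the upper quartile of the weakest part (median 43.7%, quartiles 35.8% and 51.7%), and its signal was the highest of that part, so it is not typical of weak peaks. Those of the 6 strong peaks had 33.8% at CG14100, 41.7% at Ugalt, 27.8% at CG18549, 36.4% at Hsp27, 25.2% at ph-p and 38.4% at Ptp4E. All one-strand peaks 300 to 500 bp downstream, where ph-p and Ptp4E stand, had a median of 39.4%. The Ptp4E window held none of the 20 motifs, and the Hsp27 window held only GCCAT, the core bound by the Polycomb recruiter Pho.

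One-strand summits were concentrated upstream of the start. Of the 1303, 996 (76.4%; 74.0 to 78.7) lay upstream of the nearest coding start, whereas 45.2% of all bases that meet the same rule lie on the upstream side. The median position was 150 bp upstream (quartiles 260 and 12 bp upstream). The stretch from 101 to 300 bp upstream held 587 summits (45.0%; 42.3 to 47.8), against 18.4% of the bases of the class. No summit fell on the single base of a start. The first 50 bp from the start held 53 summits (4.07%), against 5.37% of the bases. In the separate lists, 81.7% of one-strand summits were upstream in replicate 1 and 79.9% in replicate 2, with medians of 167 and 158 bp upstream. Both replicates thus had the upstream excess on their own. One-strand promoters held 22.7% of summits on 10.2% of the arm bases, a ratio of 2.22. Two-strand promoters held 10.2% of summits on 1.25% of the bases, a ratio of 8.13.

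**Figure D1:**
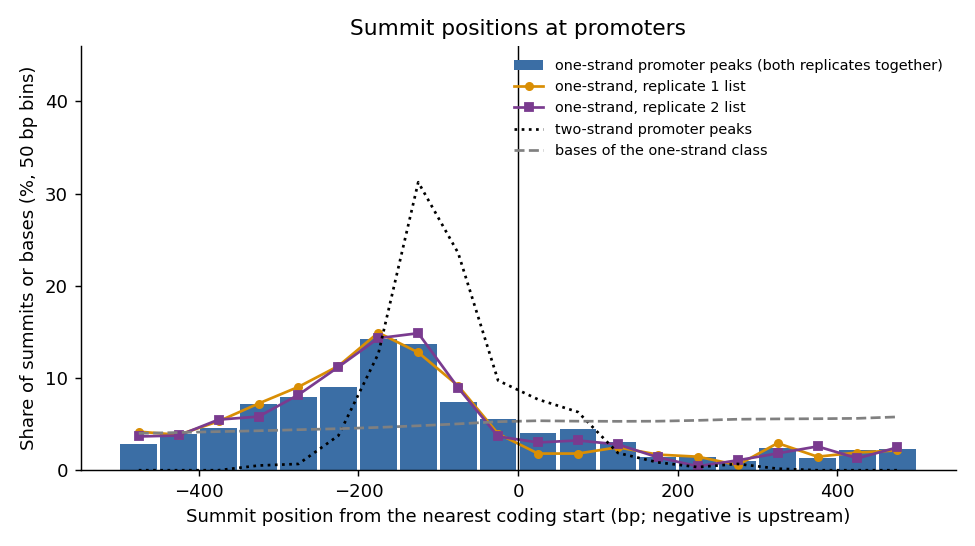
Share of summits, or of bases, by position from the nearest coding start in 50 bp bins (negative is upstream), for one-strand peaks of both replicates together (bars), of each replicate's own list (lines with markers), for two-strand peaks (dotted) and for all bases of the one-strand class (dashed). One-strand summits reach 14.3% in the bin from 200 to 150 bp upstream, where 4.64% of the bases lie, and fall below the bases on the downstream side.

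Two-strand summits lay closer to a start, with a median of 99 bp upstream (quartiles 134.75 and 37.75 bp upstream), and 82.1% of them were upstream (78.7 to 85.1). The nearer of 2 strands is taken there, which shortens the distance by construction. A peak interval covered its nearest start in 37.8% of one-strand peaks (35.1 to 40.5), against 72.9% of two-strand peaks (69.1 to 76.4). The gene of a one-strand peak was on the plus strand in 636 cases and on the minus strand in 667. Upstream one-strand summits were outside coding genes in 54.1% of cases and in introns in 40.1%, and 4 of the 996 were in coding exons. Downstream summits were in untranslated exons in 61.6% of 307 cases and in introns in 33.9%. None was outside coding genes, which the rule largely sets, because the gene begins at the start. The shares of bases at these locations, upstream or downstream, were not counted.

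Signal, the peak caller's own value with no unit, varied with position. The median one-strand peak had 114 (quartiles 83.2 and 205, range 2.85 to 2182). Peaks 201 to 300 bp upstream had the highest median, 153 (quartiles 99.5 and 309, n = 222), and those 101 to 200 bp upstream had 134 (89.5 and 270, n = 365). Summits from 0 to 99 bp downstream had the lowest, 85.7 (70.1 and 112, n = 111). From 300 to 500 bp downstream the median was 110 (79.0 and 178, n = 106), close to that of all one-strand peaks. The same 2 classes were highest and lowest in the ranked list of each replicate. In replicate 1 the medians were 75.2 at 201 to 300 bp upstream and 40.3 at 0 to 99 bp downstream, and in replicate 2 they were 88.2 and 51.6.

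Replicate support followed the same positions. A peak was counted as supported where a thresholded peak of the replicate had its summit within 100 bp. Of the peaks 201 to 300 bp upstream, 64.0% (57.3 to 70.3) were in the lists of both replicates, and 15.3% were in neither. Of those 0 to 99 bp downstream, 27.9% (19.8 to 37.2) were in both and 43.2% in neither. The peaks 1 to 100 bp upstream stood between, at 39.9% in both (32.4 to 47.7), and those 300 to 500 bp downstream were at 54.7% (44.8 to 64.4). The intervals cover counting error only. Neighbouring peaks of a gene share their chromatin, so the peaks are not independent.

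**Figure D2:**
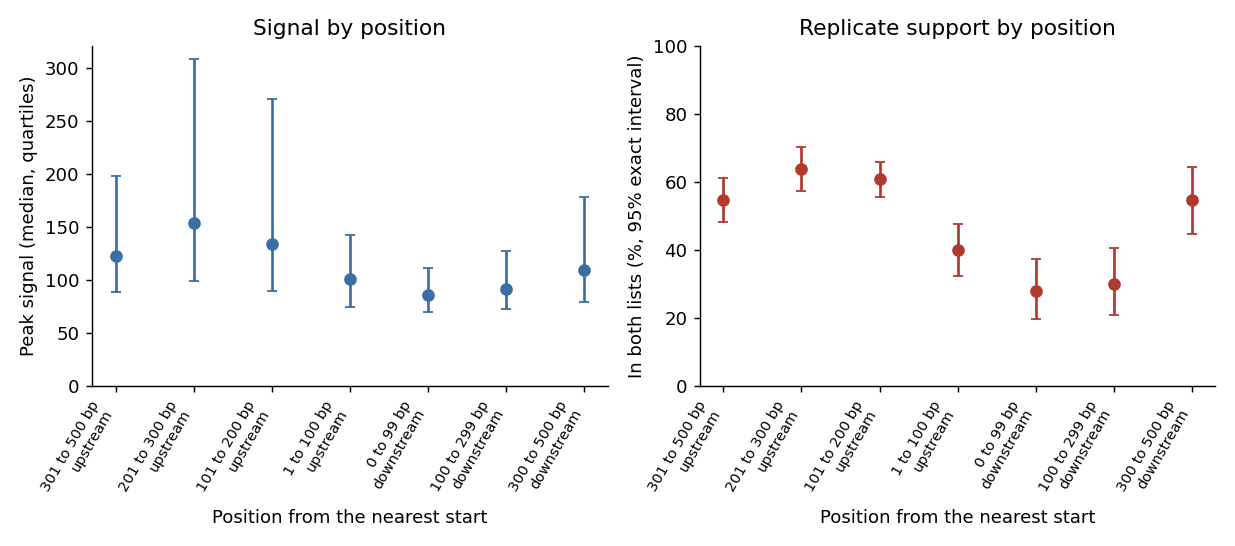
One-strand peaks by position from the nearest start: left, median signal in both replicates together with quartiles; right, share of peaks in the thresholded lists of both replicates with the 95% exact interval. Signal and support are highest from 101 to 300 bp upstream and lowest from 0 to 99 bp downstream, where 27.9% of peaks were in both lists.

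Stronger one-strand peaks were more often upstream. With the 1303 ranked by signal and split into 5 parts, the share upstream was 88.5% (84.0 to 92.1) in the strongest part, 80.0% in the next, then 80.1% and 70.0%, and 63.6% (57.4 to 69.4) in the weakest. The median position was 183 bp upstream in the strongest part and 78 bp upstream in the weakest. In two-strand peaks the strongest part was 82.9% upstream (74.8 to 89.2) and the weakest 75.4% (66.6 to 82.9), intervals that overlap. Both lists held 98.9% of one-strand peaks in the strongest part and 0.766% in the weakest, 2 of 261 peaks. IDR selects peaks in part by rank, so support and signal are not separate measurements.

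The ranked list of both replicates also holds weaker peaks, taken here as those with a global IDR above 0.01. The authors' own threshold is not given in the sources. All 5753 thresholded peaks were at 0.01 or less, as were 5857 ranked peaks, so the thresholded list leaves some of these out. Of 59591 peaks on the arms above 0.01, 7801 (13.1%) were at one-strand promoters. Only 42.8% of them were upstream (41.7 to 43.9), close to the 45.2% of bases, and their median position was 56 bp downstream. Their median signal was 27.8 and their median GC content 48.3%.

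In all, 679 of the 1303 one-strand peaks (52.1%; 49.4 to 54.9) were in the thresholded lists of both replicates, 338 were in 1 list and 286 (21.9%) in neither. Two-strand peaks were in both lists in 57.7% of cases (53.6 to 61.7). The difference, one-strand minus two-strand, was -5.57 points (95% Newcombe interval -10.4 to -0.710). In the longer ranked lists, 88.0% of one-strand peaks had a summit in both replicates, against 89.1% of two-strand peaks. Where both thresholded lists held a peak, the summits of the replicates lay a median of 16 bp apart (quartiles 7 and 36 bp). Across the 1147 one-strand peaks present in both ranked lists, the replicate signals had a Spearman's rho of 0.83, a description over peaks and not over replicates.

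**Figure D3:**
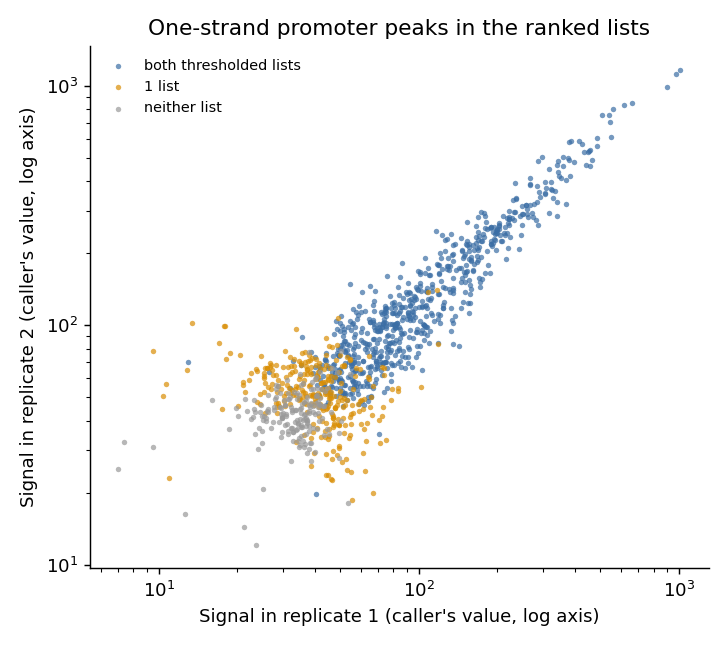
Signal of each one-strand peak in the ranked list of replicate 1 (horizontal) and replicate 2 (vertical), both on log axes, for the 1147 peaks found in both, coloured by the number of thresholded lists that hold the peak. Peaks in both thresholded lists fill the upper right, and the 3 strongest lie at 903 or more in both replicates.

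The median signal of one-strand peaks was below that of two-strand peaks, 114 against 134, a difference of -19.8. In the ranked lists it was 56.5 against 65.2 in replicate 1 (-8.64) and 69.2 against 77.1 in replicate 2 (-7.95). Quartiles overlapped widely, at 83.2 to 205 in one-strand and 87.4 to 234 in two-strand peaks. No p is given, because a sign-flip permutation over 2 replicates cannot go below 0.5. Among the 1000 strongest peaks the sign was turned, with one-strand peaks higher by 25.8. That set is cut on the same signal that is compared, so its medians depend on the cut. In the strongest of 5 parts of each class, the median was 408 in one-strand and 425 in two-strand peaks. The difference was -41.5 with starts within 250 bp, -10.3 within 1000 bp and -11.8 at an IDR of 0.001 or less. It was -4.63 without replicate 1 and -5.77 without replicate 2, each on the scale of a single list. The 3861 peaks away from coding starts had a median of 108.

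The 12 strongest one-strand peaks were all in both replicates' lists, and 10 of them were upstream. CG14100 had a signal of 1015 in replicate 1 and 1170 in replicate 2, and Ugalt had 979 and 1120. The peak of mRpL41, a protein of the large mitochondrial ribosomal subunit, reached 1889 (903 and 994), 139 bp upstream. At PNPase, the mitochondrial polynucleotide phosphorylase, the summit was 79 bp downstream of an internal start in an untranslated exon, with 1511 (663 and 852). In each of these 4, replicate 2 had the higher value, as it had in the median over all one-strand peaks. The remaining members of the 12 included eIF6, which keeps ribosomal subunits apart (1257, 103 bp upstream), and CG13921 (1159, 143 bp upstream). Fkbp14, a prolyl isomerase of the endoplasmic reticulum, was also among them (1255, 127 bp upstream of an internal start). GstE13, a glutathione S-transferase, had 1087 at 91 bp downstream, and Lpin, the fly lipin that makes diacylglycerol, had 1042 at 267 bp upstream of an internal start. Within 100 bp of a start the strongest 5 also included TRAM, with 921 (456 in replicate 1 and 465 in replicate 2), 84 bp upstream of an internal start.

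The ph-p gene (FBgn0004861, X 2126210 to 2138371, minus strand) carried 3 one-strand summits in both lists. The strongest, with 1470 (614 in replicate 1 and 836 in replicate 2), lay in an intron at 2137347, 492 bp upstream of an internal start. The next, 542 bp away at 2137889, had 811 (358 and 462) and was 482 bp downstream of the first start. These 2 summits lie between the starts of 1 gene, so each is upstream of one start and downstream of another. The third, 99 bp downstream of a start, had 104 (55.7 and 49.7). The neighbouring ph-d gene had a peak of 239 at 294 bp upstream.

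Strong peaks also lay downstream. After ph-p and Ptp4E (322 in replicate 1 and 371 in replicate 2), the strongest over 100 bp downstream were CG10413 with 562 at 113 bp, CG6287 with 540 at 372 bp, and hng3 with 484 at 467 bp. All 5 were in both lists, and the nearest starts at Ptp4E and hng3 were internal. Gug itself had 1 one-strand peak, 323 bp upstream of an internal start, with 708 (333 in replicate 1 and 365 in replicate 2).

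The GC content under one-strand summits was lower in strong peaks than in weak ones. These measures of base composition were added after other values had been seen. The median GC content of the 151 bp window was 35.1% (quartiles 29.1 and 43.7) in one-strand peaks, the highest of the 3 classes of summits, against 30.5% in two-strand peaks and 33.1% at the other summits. Windows centred on the 16504 starts of coding genes with no summit within 500 bp had 42.4%, and the same windows moved 150 bp upstream had 37.1%. By signal, the median went down from 43.7% in the weakest of the 5 parts through 37.7%, 35.8% and 32.5% to 30.5% in the strongest. By position it was 31.8% to 32.5% beyond 100 bp upstream and 46.4% from 0 to 99 bp downstream. GC content thus moved together with position, signal and support, and its part in those results was not tested. Within position classes the Spearman's rho of signal and GC content ran from -0.49 (1 to 100 bp upstream) to -0.21 (201 to 300 bp upstream). Over all one-strand peaks it was -0.42, in replicate 1 -0.39 and in replicate 2 -0.36, against -0.25 over two-strand peaks and -0.31 over the other summits. Runs of at least 8 A or 8 T were in 14.5% of one-strand windows (12.6 to 16.5), against 12.6% of two-strand windows, 15.0% at the 3861 other summits and 9.67% of shifted windows of starts without a summit. They were in 13.4% of both the strongest and the weakest part.

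**Figure D4:**
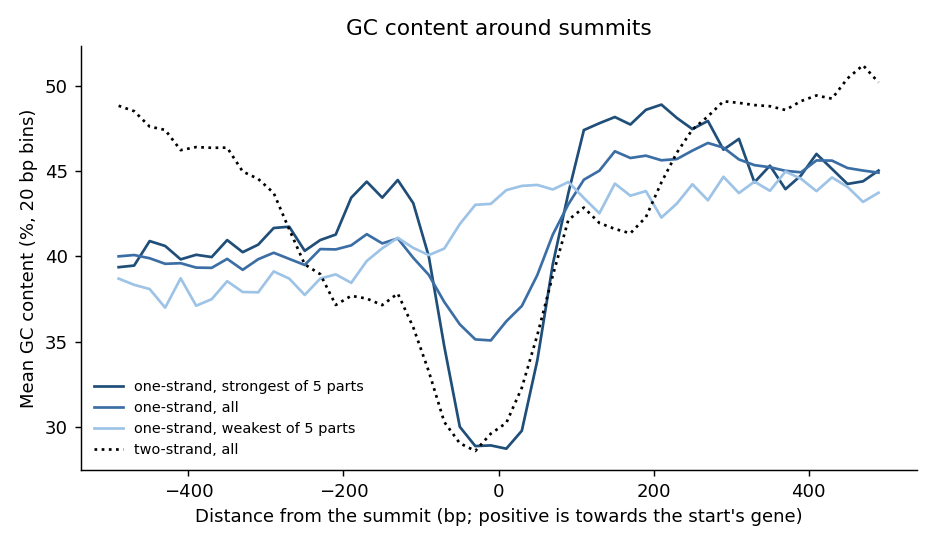
Mean GC content in 20 bp bins around the summit, on the strand of the gene (positive is towards the gene), for one-strand peaks of the strongest of 5 equal parts by signal, all one-strand peaks, the weakest part and two-strand peaks. The strongest part drops to 28.7% at the summit, while the weakest part stays at 43.9% in the same bin.

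Short motifs were searched on both strands of the 151 bp windows. A match describes letters in the window and not a bound factor. GAGAG, the core of GAGA factor sites, was in 20.6% of one-strand windows (18.5 to 22.9), against 10.2% of two-strand windows (7.90 to 13.0), 17.6% at the other summits and 19.9% of shifted windows of starts without a summit. Within the one-strand peaks it was in 14.6% of the strongest part and 25.3% of the weakest. TATAAA, the TATA box, was in 26.9% of one-strand windows (24.5 to 29.4), against 37.7% of two-strand windows, 27.7% at the other summits and 24.2% of shifted windows. It was in 37.2% of the strongest part (31.3 to 43.3) and 18.0% of the weakest (13.5 to 23.2). These letters are all A or T, and GC content differed between the same parts in that direction. TATCGATA, read by DREF at housekeeping promoters, was in 1.23% of one-strand windows (0.703 to 1.99), against 3.58% of two-strand windows. It was in 0.207% at the other summits, 1.98% of shifted windows and 5.75% of windows centred on starts without a summit. CGATA, bound by BEAF-32 and contained in TATCGATA, was in 19.3%, against 30.5% of two-strand windows and 14.2% at the other summits. Shifted windows had it in 22.8% and windows centred on starts without a summit in 31.0%. AAGTCA, the site of the Tailless type, was in 6.45% of one-strand windows (5.17 to 7.92), against 6.83% of two-strand and 7.62% of shifted windows. AGGTCA, the core of many nuclear receptor sites, was in 2.69% (1.88 to 3.72), against 1.54% and 3.24%. CANNTG, the E box, was in 45.9%, against 42.0% of two-strand windows and 50.8% of shifted windows. TCAGT, from the initiator at the start, was in 26.6%, against 18.9% of two-strand windows, 29.01% at the other summits, 22.97% of shifted windows and 38.6% of windows centred on starts without a summit. GCCAT was in 16.8%, against 16.9% of two-strand and 22.9% of shifted windows. The other 11 were the E boxes CACGTG and CAGCTG (both contained in CANNTG), core promoter motif GTCACACT, TGANTCA (AP-1), TGACGTCA (CREB), CACACACA (Combgap), GGAATG (Scalloped), TGGGAA (Suppressor of Hairless), CAGGTAG (Zelda), GGCGCC (Brinker) and AACAAAG (Pangolin). Each was in 0.230% to 7.44% of one-strand windows, against 0.683% to 6.997% of two-strand windows and 0.303% to 8.56% of shifted windows.

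The distance to the opposite strand's coding starts, over 500 bp by the rule, was examined after other values had been seen. The nearest such start lay a median of 4758 bp from the summit (quartiles 1963 and 10566 bp), and over 5000 bp away for 633 peaks (48.6%). In 165 peaks (12.7%) it lay beyond the 500 bp of the rule but at most 1000 bp away. Those 165 had a median position of 109 bp upstream, a median signal of 101 and 45.5% in both lists (37.7 to 53.4). The 633 had 174 bp upstream, 114 and 52.4% (48.5 to 56.4). Signals ranged from 3.09 to 2084 in the 165 and from 2.85 to 1360 in the 633. The 165 included Ugalt (682 bp), mRpL41 (623 bp), PNPase (584 bp) and Gug (948 bp). CG14100, with the strongest peak, was in neither set (4362 bp). A noncoding gene started on the opposite strand within 500 bp of 75 peaks (5.76%).

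A one-strand peak lay within 500 bp of a start of 1135 of 13945 coding genes, 8.14% (7.69 to 8.61). Of these genes 964 had 1 such summit, 144 had 2 and 27 had 3 or more, and 63 also had a two-strand peak. Over all 13945 coding genes, 1138 (8.16%) had a two-strand peak. Genes with a one-strand peak were longer than the others, with a median of 6639 bp against 2033 bp for the other coding genes. They also had more transcript starts: 32.2% had 3 or more distinct starts, against 5.99% of the others. A gene with more starts covers more bases and so has more chances to meet the rule. Among genes with a single start, 458 of 10246 (4.47%) had a one-strand peak, and their median length was 3104 bp against 1723 bp. Where the starts of a gene spanned over 1000 bp, the nearest start was within 500 bp of the most upstream one for 34.5% of 637 peaks (30.8 to 38.4). Of all distinct starts of those genes, 33.2% were there.

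Genes with several one-strand summits had them at separate starts or around 1 start. Ptpmeg2, a protein tyrosine phosphatase, had 4 summits, all upstream of internal starts in introns and all in both lists, with signals of 666, 535, 325 and 316. Rtnl1, a reticulon that shapes the endoplasmic reticulum, had 4 as well, from 177 to 314 bp upstream of internal starts, with 881, 264, 196 and 185. In dnc, the cAMP phosphodiesterase gene of learning mutants, 3 of 4 summits were upstream of internal starts, with 548, 436 and 245 in both lists. The fourth was 188 bp downstream of an internal start, with 97.0. The 4 summits of CG3842 were weaker, from 7.83 to 138, and 1 of them was in both lists. CG10365 had 3 summits, with 282 at 369 bp upstream, 116 at 301 bp downstream and 3.10 at 167 bp upstream. Cbs, cystathionine beta-synthase, had 3, with 99.1 at 422 bp downstream of an internal start. The others were 81.7 at 487 bp upstream and 78.2 at 30 bp downstream of the first start.

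Genes of 13 functional lists were counted against the 8.14% of all coding genes. The counts describe the lists, with no test, and some genes (EcR, Eip75B, hid, gro) stand in more than 1 list. The lists were not matched to all coding genes for the number of transcript starts. Of genes with 3 or more distinct starts, 366 had a one-strand peak and 767 did not. Of genes with 1 start, 458 had one and 9788 did not. The part of start number in the list shares was not tested. In the list of ecdysone response and metamorphosis 10 of 33 genes (30.3%; 15.6 to 48.7) had a one-strand peak. E23, an ecdysone-induced ABC transporter, had 635 (294 in replicate 1 and 343 in replicate 2), 238 bp upstream. The death gene hid had 441 (190 and 257), 307 bp upstream, and Ldh, lactate dehydrogenase, had 349 (188 and 166), 203 bp upstream. Eip93F, a regulator of metamorphosis, had 199 (75.04 and 118) at 58 bp upstream of an internal start, and was in both lists like the other 3. Over all 10 genes the median signal was 139, and the strongest peak was in both replicates' lists in 6. Nuclear receptors had 7 of 21 genes (33.3%; 14.6 to 57.0), at lower signals. Eip75B had 153 (88.5 and 66.1), 34 bp downstream, ERR had 146 (62.3 and 84.1), 251 bp upstream, and the ecdysone receptor gene EcR had 124.5 (60.9 and 63.8), 354 bp upstream. Hnf4 had 136 and was in 1 list. The strongest peak was in both replicates' lists in 3 of the 7 genes. The nearest start was internal in each of these named nuclear receptor genes.

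Signalling genes linked to Gug in flies gave a spread of positions. In the Fat, Hippo and planar polarity list 9 of 26 genes (34.6%; 17.2 to 55.7) had a one-strand peak. The strongest peak of each was upstream in 4 and in both replicates' lists in 5. The gene app, a palmitoyltransferase that acts downstream of Fat, had 304 (128 in replicate 1 and 172 in replicate 2), 171 bp upstream. The scaffold gene dlg1 had 270 at 426 bp downstream, Mer, the fly Merlin, had 216 at 78 bp downstream, and ft, the Fat cadherin gene itself, had 184 (105 and 93.3) at 495 bp upstream. Of Notch pathway genes 7 of 25 (28.0%; 12.1 to 49.4) had such a peak. The strongest of each was upstream in all 7, from 123 to 395 bp, and in both lists in 5. They included the corepressor gene gro with 599 (278 and 321), numb, a Notch inhibitor, with 416 (221 and 211), and the Notch targets E(spl)m3-HLH with 152 and E(spl)m7-HLH with 110. In the EGFR and Ras pathway it was 6 of 27 (22.2%; 8.62 to 42.3). The ligand gene spi had 368 (171 and 213), the phosphatase gene Mkp3 had 334 (162 and 170), the secreted antagonist gene aos had 209 (96.7 and 108) and the phosphatase gene csw had 163 (80.8 and 84.4). All 4 of these summits were upstream and in both lists. Of the 6 genes, 5 had their strongest peak in both lists. The nearest starts at dlg1, gro, numb, spi and csw were internal.

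Among corepressors and histone deacetylases 6 of 30 genes had a one-strand peak (20%; 7.71 to 38.6), with Gug, gro and sbb (437, 137 bp upstream) the strongest, then Sirt7, a sirtuin deacetylase (110, 71 bp upstream), and 5 of the 6 in both lists. Polycomb and Trithorax group genes had 5 of 32 (15.6%; 5.28 to 32.8), each with its strongest peak in both lists. Besides ph-p and ph-d these included Trl, the GAGA factor gene, with 354 (159 in replicate 1 and 188 in replicate 2), 130 bp downstream, and jing with 173 (82.0 and 87.2), 54 bp downstream. Heat shock genes had 4 of 20 (20%; 5.73 to 43.7), Hsp27, Hsp26 (253, 123 bp upstream), Hsp83 (164, 70 bp upstream) and Hsp60A (70.4, in neither list). Cell death and autophagy genes had 3 of 29 (10.3%; 2.19 to 27.4), hid, Atg8a (118, 90 bp upstream) and Atg13 (92.8, 230 bp downstream). The nearest starts at Gug, gro, ph-p, Trl, jing, Hsp83 and Atg8a were internal.

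Cytoplasmic ribosomal protein genes had a one-strand peak in 14 of 93 cases (15.1%; 8.48 to 24.0), and these lay close to the start. Their median position was 9 bp upstream (from 212 bp upstream to 94 bp downstream), their median signal 95.8 and their median GC content 44.0%, and 3 of the 14 were in both lists. The strongest were RpL17 with 141 (73.0 in replicate 1 and 69.3 in replicate 2) at 4 bp upstream, RpS7 with 137 (78.7 and 54.5) at 11 bp upstream, RpS28b with 110 (64.0 and 50.1) at 7 bp upstream, and RpL11 with 107 (58.5 and 46.8) at 137 bp upstream. In these 4 replicate 1 had the higher value, as also at Ldh, Eip75B, numb and ft but not at the strongest peaks. The lists of the 2 replicates were not put on a common scale. Mitochondrial ribosomal proteins had 1 of 73 genes with a one-strand peak (1.37%; 0.0347 to 7.40), mRpL41, and 19 of 73 with a two-strand peak. Of cytoplasmic ribosomal protein genes 15 of 93 had a two-strand peak, and of all coding genes 1138 of 13945 (8.16%). Cuticle proteins had 1 of 97 (1.03%), Cpr73D with 91.9. None of 119 odorant and gustatory receptor genes had one, which allows a share of up to 3.05%.

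**Figure D5:**
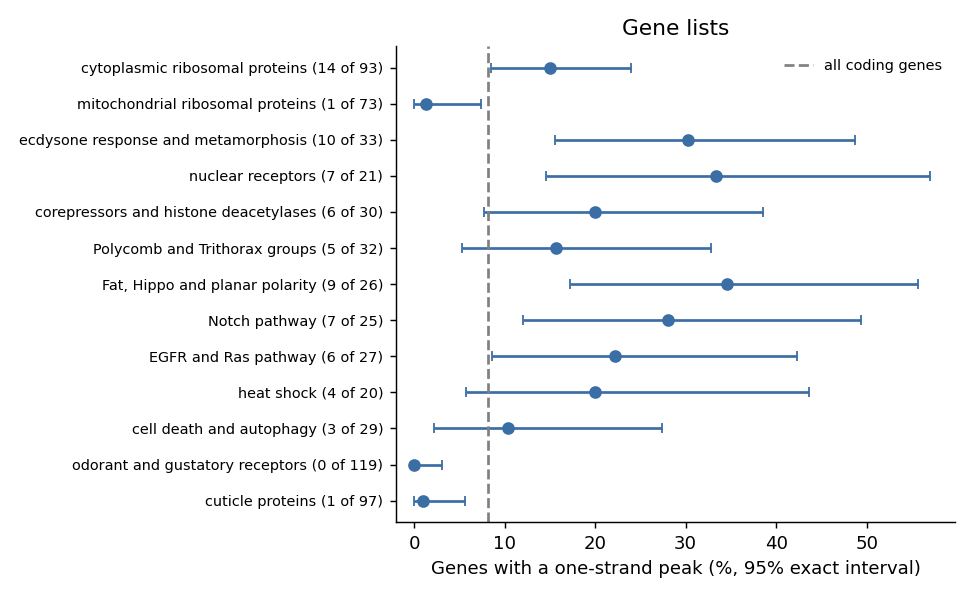
Share of the genes of each list with a one-strand peak within 500 bp of a transcript start, with the 95% exact interval; the dashed line is the 8.14% of all coding genes. Nuclear receptors and the Fat, Hippo and planar polarity list are farthest to the right (33.3% and 34.6%), and odorant and gustatory receptors lie at 0. The lists are not matched to all coding genes for the number of transcript starts.

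By arm, X held 302 one-strand peaks, 26.1% of its summits (23.6 to 28.7), and 11.1% of its coding genes had one (9.83 to 12.5). The 4 arms of chromosomes 2 and 3 together held 1000, 21.8% of their summits, and 7.63% of their genes had one (7.15 to 8.12). Chromosome 4 held 1. Median signal was 116 on X and 114 on the other 4 arms.

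At the edges of the rule, the summits just inside 500 bp were ebd2 at 500 bp upstream (signal 16.5), CG11737 at 500 bp downstream (16.0) and CG15822 at 498 bp upstream (102). Just outside were CG9896 and CG42867, both 501 bp downstream (76.4 and 72.0), and sug at 502 bp upstream (137). The opposite start was just beyond 500 bp at CG15083 (506 bp, signal 6.94), CG15343 (509 bp, 103) and CG9953 (509 bp, 83.8). The strongest peaks in neither replicate's list were sea with 162 (50.1 in replicate 1 and 78.2 in replicate 2), ZnT86D, a zinc transporter, with 119 (54.3 and 62.8), GstD1 with 116, Esyt2 with 110 and CG15093 with 109. Each was present in both ranked lists. The sea summit lay 214 bp from a stronger one of the same gene (342, in both thresholded lists). Stronger summits also lay near those of ebd2 (206 bp), CG11737 (200 bp) and CG15083 (214 bp). The 3 weakest, CG10365 (3.10), Pih1D1 (3.09) and eg (2.85), each lay 202 to 204 bp from a stronger summit.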

How the data were processed

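Peak lists from anti-GFP ChIP-seq of 2 biological replicates were used as deposited, on dm6 per the labels. The signal of each peak is the peak caller's own value, deposited by the authors with no unit, and was not scaled between lists. Classes of peaks were compared only within a list. The −log10 of the global IDR deposited by the authors set the stricter alternative and the weaker peaks, those above 0.01. That value was chosen here: all 5753 thresholded peaks lie at or under it, but so do 5857 ranked peaks. The aligner, the peak caller and the IDR settings are not given in the sources used here. A control alignment was an input of each list, per the README files deposited with them. Library depth is unknown.

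Summits were assigned to coding transcript starts of Ensembl release 115 and positions given in the direction of transcription, 1-based. The assignment was tested on simulated data. Shares carry 95% exact binomial intervals, and differences of shares Newcombe intervals. Base shares were counted base by base, without unknown bases. Replicate signals are those of a ranked peak with a summit within 100 bp. Python 3.11.15, numpy 2.4.6, pandas 2.3.3, scipy 1.17.1 and matplotlib 3.10.9 were used.

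The members, the lists and the tests were chosen with earlier results of these data known. Named genes were the 12 strongest peaks, the 5 strongest in each of 3 position classes, the 6 genes with the most summits, up to 4 genes per list by signal, Gug, the peaks at the edges of the rule and the 5 strongest in neither list. Among the 6 genes, CG10365 and Cbs had 3 summits each and were taken from a tie with other genes, such as ph-p. The 3 weakest peaks, the third ph-p summit and CG10713 were added after their values were seen. Of the list names, 619 matched a symbol, 10 an older symbol and 7 none. The pattern for cuticle genes was corrected after the files had been read.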

Additional observations from a re-analysis of the deposited data

How the results depend on the processing

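Of the alternative values, 24 stayed within the error of the value given, 39 moved beyond it in size and 1 reversed. For the signal difference the standard deviation between the 2 replicate lists was only 0.801. Signals from the list of a single replicate are on their own scale and count among the moved. The tally is therefore not a measure of robustness. With the conservative set, or without summits within 200 bp of a stronger one, the shares, the median position, the median signal and the gene share stayed close to those given, and the signal difference between one-strand and two-strand peaks was -18.8 with close summits left out. With starts taken 250 and 1000 bp away in place of 500, one-strand peaks were 18.0% and 28.6% of summits, 78.8% and 68.9% upstream, at medians of -117 and -160.5 bp (negative is upstream), with signal differences of -41.5 and -10.3. Genes with a peak were then 6.97% and 9.16%. At 250 bp, 48.6% were in both lists. With only the most upstream start of each gene, the shares were 15.4% of summits and 6.11% of genes, at a median of -137 bp. At an IDR of 0.001 or less, 81.3% were upstream at a median of -167 bp, with a median signal of 159, a difference of -11.8, 74.4% in both lists and 5.87% of genes. Among the 1000 strongest peaks, one-strand peaks were 28.2%, with 87.9% upstream at a median of -185 bp, a median signal of 395, 98.9% in both lists and 1.99% of genes. There the signal difference reversed to 25.8, in a set that was cut on the same signal. The cause of these changes was not tested. The stricter sets hold fewer peaks and were cut on signal or on IDR. With summits matched at 50 bp in place of 100, 46.4% were in both lists, and with the ranked lists 88.0%. Leaving out 1 replicate in turn, which leaves the other's own list, gave 79.9% to 81.7% upstream, medians of -167 to -158 bp, median signals of 74.3 to 86.4 on the scale of a single library, signal differences of -5.77 to -4.63 and 5.89% to 6.22% of genes.

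No paired analysis was possible because there is a single group of 2 replicates. Peaks are not replicates, and intervals cover counting error only. The depth of the libraries is unknown, so a promoter without a peak cannot be told from one below detection.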
